A study of Mus musculus with 9 samples.

Results

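Renal handling of calcium and magnesium was followed through 10 genes, taken from 22180 genes measured in mouse kidney. The genes were the apical calcium channel *Trpv5*, the cytosolic calcium buffer *Calb1* (calbindin), the basolateral sodium-calcium exchanger *Slc8a1*, the plasma membrane calcium pump *Atp2b1*, the apical magnesium channel *Trpm6*, the calcium-binding protein *Pvalb* (parvalbumin), the growth factor *Egf*, the calcium-sensing receptor *Casr*, and the tight junction proteins *Cldn16* and *Cldn19*. The gene names were chosen by their role and with earlier results of the same arrays in view, so the counts of changed genes among them describe these arrays and are not independent evidence of a direction. Each gene was represented by the probe set that carried its symbol alone and was chosen by its highest mean over the 9 arrays. That choice by level decided only between the 2 probe sets of *Cldn19*, whose means were 7.40 and 5.18 on the log2 scale, since the other 9 genes had 1 such probe set each.

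In the thick ascending limb of the nephron, calcium and magnesium pass between the cells, through tight junctions in which claudin-16 and claudin-19 form a cation pathway, and the calcium-sensing receptor restrains this route when blood calcium is high. In the distal convoluted and connecting tubules transport runs through the cells. Calcium enters by TRPV5, is carried across the cytosol by calbindin and leaves by the exchanger and the pump, a chain that parathyroid hormone and active vitamin D stimulate. Magnesium enters the distal convoluted tubule by TRPM6, whose activity is raised by epidermal growth factor released by the same cells, and parvalbumin marks the early part of that segment.

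The 3 groups held 3 male mice each, with 1 array per mouse. Control mice were *db/m* given vehicle for 12 weeks. Diabetic *db/db* mice carry a leptin receptor mutation in every cell, so obesity, high blood glucose and the receptor defect come together. These mice received vehicle or irbesartan, a blocker of the angiotensin II type 1 receptor, for the same 12 weeks. No *db/m* mouse in the data received irbesartan. The series design gives an age of 10 weeks at the start and the labels give kidney, whereas the methods give 8 weeks, the C57BL/KsJ background and renal cortex. Values were RMA signals on the log2 scale, in which a difference of 1 is a 2-fold difference, and the level of a probe set also depends on its own binding, so levels are compared between mice and not between genes. A single limma model covered all arrays. A gene counted as a DEG where its log2 fold change exceeded 0.5 in size and its p, adjusted by Benjamini-Hochberg across the 22180 genes, was under 0.25. Pairs of arrays correlated at 0.984 to 0.994. Kidney markers were high, with *Slc12a3*, the thiazide-sensitive cotransporter of the distal convoluted tubule, between 10.63 and 11.20 and *Umod*, uromodulin of the thick ascending limb, between 11.60 and 11.97, against a median of all probe set means of 3.39. All 10 genes lay above that median.

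Promoter windows are shown for the 3 genes that were DEGs in at least 1 comparison and had an entry in the RefSeq table of GRCm38.p6, and for *Atp2b1*, the exit pump of the same chain that was a DEG in none. Each window holds the 250 bases before and 50 bases after the annotated start, 5′ to 3′ on the strand of the gene, and capitals mark a searched motif. *Calb1* had no entry, and 9 of the 10 genes had 1 or more. The windows lie at chr17:81738338-81738637 on the minus strand for *Slc8a1*, chr6:41680674-41680973 on the minus strand for *Trpv5*, chr19:18749480-18749779 on the plus strand for *Trpm6*, and chr10:98914392-98914691 on the plus strand for the first listed start of *Atp2b1*.
Slc8a1: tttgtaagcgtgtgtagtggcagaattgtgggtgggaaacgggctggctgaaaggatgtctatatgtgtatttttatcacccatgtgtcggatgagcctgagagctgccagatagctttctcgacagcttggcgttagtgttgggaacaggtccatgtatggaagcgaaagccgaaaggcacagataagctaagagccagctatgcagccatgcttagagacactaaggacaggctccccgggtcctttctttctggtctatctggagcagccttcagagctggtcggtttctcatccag
Trpv5: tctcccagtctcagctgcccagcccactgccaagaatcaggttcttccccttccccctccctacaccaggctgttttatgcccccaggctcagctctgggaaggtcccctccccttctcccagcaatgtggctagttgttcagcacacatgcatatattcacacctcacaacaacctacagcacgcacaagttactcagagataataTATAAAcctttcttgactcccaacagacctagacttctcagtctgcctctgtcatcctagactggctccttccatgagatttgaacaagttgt
Trpm6: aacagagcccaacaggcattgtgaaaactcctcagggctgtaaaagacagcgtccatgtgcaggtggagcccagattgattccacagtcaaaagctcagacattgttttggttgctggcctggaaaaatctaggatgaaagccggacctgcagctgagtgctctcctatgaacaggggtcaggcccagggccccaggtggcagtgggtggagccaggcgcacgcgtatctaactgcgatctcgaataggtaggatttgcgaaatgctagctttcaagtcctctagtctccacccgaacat
Atp2b1: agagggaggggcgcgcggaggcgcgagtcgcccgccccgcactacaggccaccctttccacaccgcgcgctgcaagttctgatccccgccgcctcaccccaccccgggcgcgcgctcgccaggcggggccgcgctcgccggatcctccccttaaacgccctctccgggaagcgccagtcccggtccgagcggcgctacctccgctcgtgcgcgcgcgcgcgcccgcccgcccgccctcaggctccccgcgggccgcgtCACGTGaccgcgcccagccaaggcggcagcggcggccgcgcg

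Short motifs were searched on both strands of all windows of the 9 genes, and the share of all 32851 promoter windows holding each was counted. The TATA box letters TATAAA stood 43 bases before the start of *Trpv5* and in none of the windows of the other 8 genes, against 13.6% of all windows. The E-box CACGTG stood 8 bases after the start of *Atp2b1*, against 7.15% of all windows. AGAACA, the core of the glucocorticoid response element, was found in *Cldn16* and at the alternative start of *Pvalb*, against 19.0% of all windows. AGGTCA, the core to which the vitamin D receptor and other nuclear receptors bind, was in none of the 9 genes, against 16.3% of all windows. Also absent from the 9 genes were TGACGTCA, the cyclic AMP response element (1.79%), and GTTAAT, a motif of the factor HNF1 (7.1%). The *Atp2b1* window had a GC content of 79.3%, whereas those of *Slc8a1*, *Trpv5* and *Trpm6* had 50.7%, 50.7% and 53.0%. A match describes letters only, and no motif was shared by the genes that were DEGs.

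Of the 4 genes for the route of calcium through the distal tubule cell, 3 had more transcript in untreated *db/db* kidneys than in *db/m* kidneys. Transcripts of the entry channel *Trpv5*, the buffer *Calb1* and the exchanger *Slc8a1* rose 1.47-fold, 1.6-fold and 1.84-fold, and these 3 were the DEGs among the 10 genes. The background was 1.31% of all 22180 genes called higher and 0.987% called lower in this comparison. The pump *Atp2b1*, the magnesium genes and the genes of the thick ascending limb did not reach both thresholds. All 10 log2 fold changes were above 0, with a median of 0.30, against 51.2% of all genes above 0 and an all-gene median of 0.01. By limma, 5 of the 10 genes had an unadjusted p under 0.05, against 13% of all genes. The mean level of 14 markers of the distal convoluted tubule, connecting tubule and principal cell was also above the *db/m* range, at 8.58 to 8.64 against 8.28 to 8.50, and in bulk kidney more cells of a type cannot be told apart from more RNA per cell.

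Untreated *db/db* mice had *Slc8a1* signals of 8.07, 8.03 and 7.91, and *db/m* mice had 6.95, 7.31 and 7.10. The lowest *db/db* mouse stood above the highest *db/m* mouse. The means were 8.0 ± 0.08 and 7.12 ± 0.18 (SD, n = 3), a log2 fold change of 0.88 with a standard error of 0.13 and a limma adjusted p of 0.00823. For *Calb1*, the *db/db* signals were 10.86, 10.45 and 10.91 and the *db/m* signals 10.04, 10.29 and 9.85. The groups again did not overlap, although *db/db* replicate 2 lay only just above *db/m* replicate 2. The log2 fold change of *Calb1* was 0.68 (SE 0.16, adjusted p = 0.0758 by limma). For *Trpv5*, the *db/db* signals of 8.0, 7.97 and 7.93 were close together, and the *db/m* signals of 7.15, 7.69 and 7.41 were spread. Every *db/db* mouse exceeded every *db/m* mouse, and the log2 fold change was 0.55 (SE 0.15, adjusted p = 0.119 by limma). This is near the fold threshold, and the call was lost without *db/m* replicate 1 (log2 fold change 0.42) or without *db/db* replicate 1 (0.53, limma adjusted p = 0.267). At a stricter adjusted p of 0.05, *Slc8a1* was the 1 gene of the 10 that remained, where 1.02% of all genes passed.

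**Figure D1:**
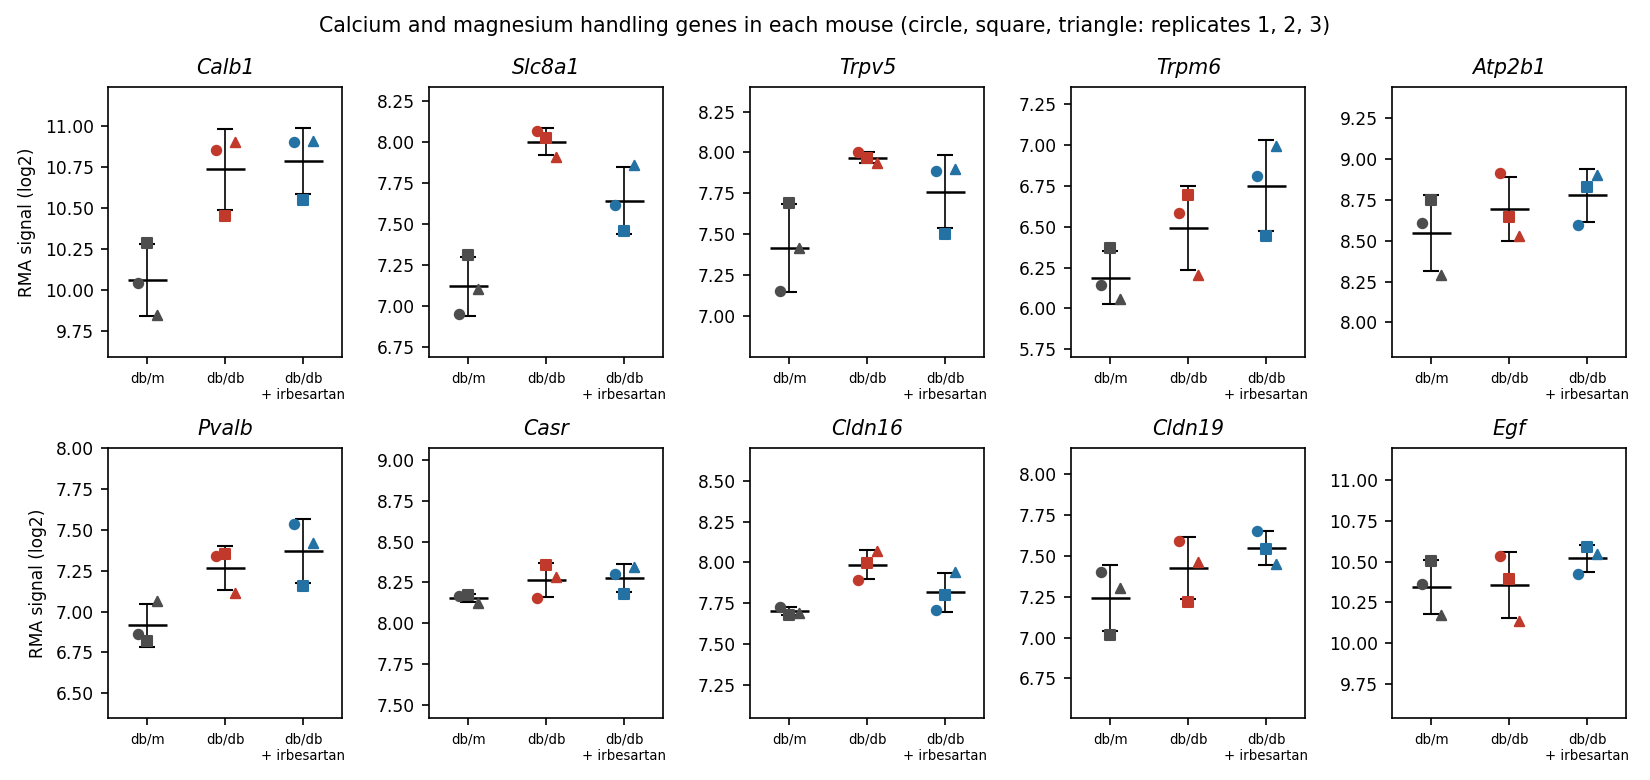
RMA signal (log2, vertical axes that span the same number of units) of the 10 genes in each mouse by group, where circles, squares and triangles are replicates 1, 2 and 3, horizontal bars are group means and vertical bars are SDs (n = 3). For *Calb1*, *Slc8a1* and *Trpv5* the 3 untreated *db/db* mice all lie above the 3 *db/m* mice, and for *Slc8a1* and *Trpv5* the treated mice lie below the untreated *db/db* mice.

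*Atp2b1*, the pump that shares the exit step with the exchanger, had signals of 8.91, 8.64 and 8.53 in *db/db* mice and 8.61, 8.75 and 8.29 in *db/m* mice. These groups overlapped, and the log2 fold change of 0.15 had a 95% interval of -0.17 to 0.46. The interval leaves room for a change close to the threshold but not for one of the size seen in *Slc8a1*.

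The magnesium channel *Trpm6* had signals of 6.58, 6.69 and 6.21 in untreated *db/db* mice and 6.15, 6.37 and 6.06 in *db/m* mice, so *db/db* replicate 3 lay within the *db/m* range. Its log2 fold change was 0.30 (SE 0.16, adjusted p = 0.464 by limma). *Pvalb* was 7.34, 7.35 and 7.11 against 6.87, 6.82 and 7.07 in *db/m* mice, without overlap. Its log2 fold change of 0.35 (SE 0.12, adjusted p = 0.245 by limma) met the p threshold and not the fold threshold. Parvalbumin is also abundant in fast skeletal muscle. None of the 5 muscle markers listed was called, and only 2 of them lay above the median level. Their summed level (log2 of the summed linear signals) was between 5.68 and 5.75 in both groups. Whether muscle tissue contributed to the *Pvalb* signal was not tested. *Egf* differed least, with 10.53, 10.39 and 10.14 against 10.36, 10.50 and 10.17, a log2 fold change of 0.01 and a 95% interval of -0.26 to 0.28.

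Among the genes of the thick ascending limb, *Cldn16* had signals of 7.89, 7.99 and 8.07 in *db/db* mice and 7.73, 7.68 and 7.69 in *db/m* mice. The groups did not overlap and varied little within themselves, and the log2 fold change of 0.29 (SE 0.09, adjusted p = 0.217 by limma) was under the fold threshold. Its partner *Cldn19* was 7.59, 7.22 and 7.47 against 7.40, 7.02 and 7.30, with overlap and a log2 fold change of 0.18 (SE 0.13). Its dimmer probe set gave -0.07, so the sign of *Cldn19* rests on the brighter probe set. *Casr* was 8.15, 8.36 and 8.28 against 8.17, 8.17 and 8.13, a log2 fold change of 0.11 with a 95% interval of -0.09 to 0.31. Of the 10 genes, 5 had groups without overlap, all of them higher in *db/db* mice, where 9.18% of all genes were higher and 7.62% lower without overlap.

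**Figure D2:**
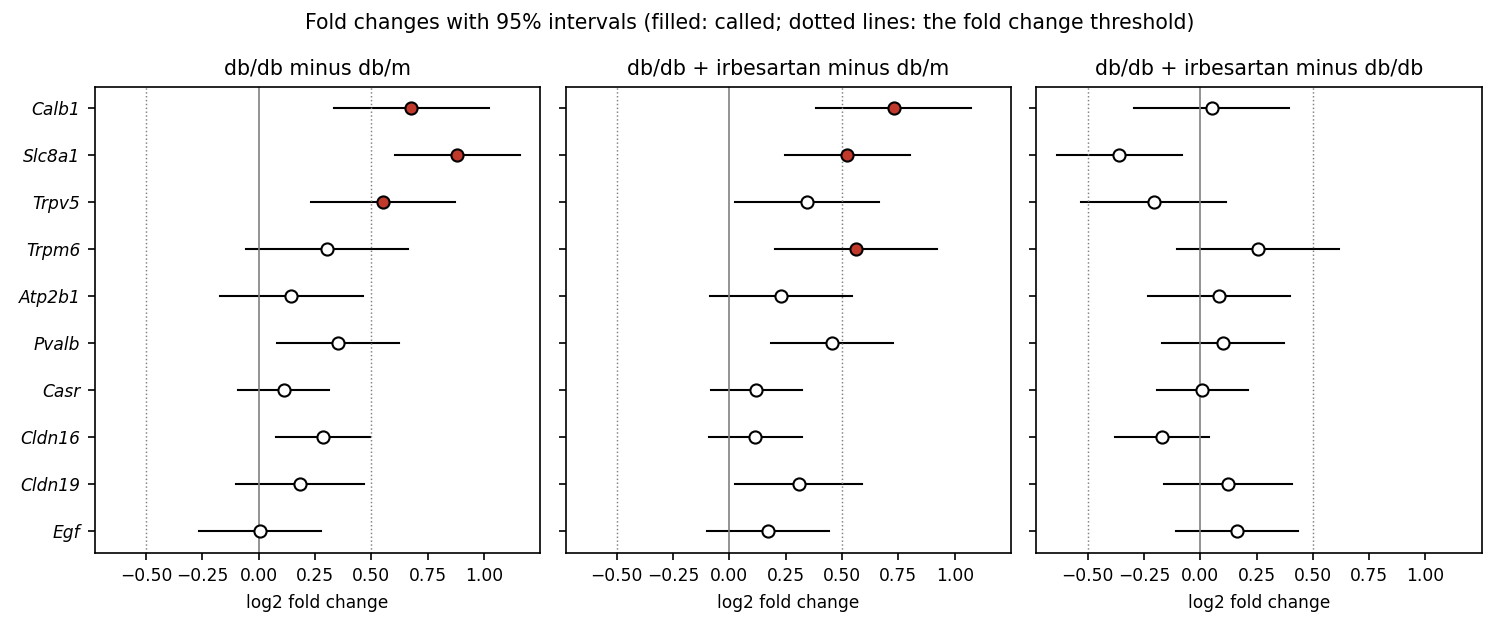
Log2 fold change of each of the 10 genes in the 3 comparisons (points) with 95% intervals from the limma fit (lines), where filled points are DEGs and dotted lines mark the fold threshold of 0.5. In untreated *db/db* against *db/m* mice *Slc8a1* lies highest at 0.88, and in the comparison of treated with untreated *db/db* mice no point is filled.

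Irbesartan-treated *db/db* mice were compared with the same *db/m* mice, and *Calb1*, *Slc8a1* and *Trpm6* rose 1.66-fold, 1.44-fold and 1.48-fold. These 3 of the 10 genes were DEGs, where 1.93% of all genes were called higher and 1.96% lower. All 10 log2 fold changes were again above 0, with a median of 0.33 (all genes, 49.7% above 0). An unadjusted limma p under 0.05 was found for 6 of the 10 genes, against 17% of all genes, and *Calb1* alone of the 10 passed at an adjusted p of 0.05, as did 2.49% of all genes. This comparison shares its *db/m* arrays with the preceding comparison, so their likeness is not independent.

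*Calb1* signals were 10.90, 10.55 and 10.91 in treated mice, all above the highest *db/m* mouse at 10.29, with a log2 fold change of 0.73 (SE 0.16, adjusted p = 0.0318 by limma). *Slc8a1* was 7.61, 7.46 and 7.86, also above the highest *db/m* mouse at 7.31. Its log2 fold change of 0.52 (SE 0.13, adjusted p = 0.0510 by limma) stood just over the fold threshold, and the call was lost without *db/m* replicate 1 (0.44) or without treated replicate 3 (0.41). *Trpv5* was 7.88, 7.50 and 7.90, and treated replicate 2 fell inside the *db/m* range. Its log2 fold change was 0.34 (SE 0.15, adjusted p = 0.260 by limma), which missed both thresholds.

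*Trpm6* reached 6.81, 6.45 and 7.0 in treated mice, each above the highest *db/m* mouse at 6.37. The log2 fold change was 0.56 (SE 0.16, adjusted p = 0.0978 by limma). The call was lost without *db/m* replicate 3 (0.49), without treated replicate 1 (0.53, limma adjusted p = 0.260) or without treated replicate 3 (0.44). *Pvalb* was 7.54, 7.15 and 7.42 in treated mice, above all *db/m* mice, with a log2 fold change of 0.45 (SE 0.12, adjusted p = 0.0763 by limma) under the fold threshold. The channel and the early distal marker were thus both above the *db/m* range in every treated mouse, and only the channel passed both thresholds.

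*Egf* was 10.43, 10.59 and 10.54 in treated mice and overlapped the *db/m* mice, with a log2 fold change of 0.17 (95% interval -0.10 to 0.44). *Atp2b1* was 8.59, 8.83 and 8.90, also with overlap, and its log2 fold change was 0.23 (-0.09 to 0.54). Neither of these 2 genes passed a threshold. *Cldn19* was 7.65, 7.54 and 7.45 in treated mice, all above the *db/m* mice, with a log2 fold change of 0.31 (SE 0.13, adjusted p = 0.254 by limma) and 0.17 by its dimmer probe set. *Casr* was 8.30, 8.18 and 8.34, above the *db/m* mice by a small margin, with a log2 fold change of 0.12. *Cldn16* was 7.71, 7.80 and 7.94 and overlapped them, with a log2 fold change of 0.12. In this comparison 6 of the 10 genes had groups without overlap, all higher, where 10.8% of all genes were higher and 12.7% lower without overlap.

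Treated and untreated *db/db* mice were compared directly to measure the response to irbesartan. None of the 10 genes was a DEG, where 0.577% of all genes were called higher and 0.428% lower. By limma, 1 of the 10 genes had an unadjusted p under 0.05, against 12.2% of all genes, and at an adjusted p of 0.05 the share of all genes called was 0%. The genes did not move one way, with 7 of 10 log2 fold changes above 0 (46.3% of all genes) and a median of 0.07.

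*Slc8a1* gave the largest difference of the 10 genes. The treated signals of 7.61, 7.46 and 7.86 all lay below the untreated signals of 8.07, 8.03 and 7.91, with a log2 fold change of -0.36 (SE 0.13, 95% interval -0.64 to -0.08). The unadjusted p was 0.0157 and the limma adjusted p 0.308. *Trpv5* was also lower in every treated mouse, with a highest treated signal of 7.90 against a lowest untreated signal of 7.93, and its log2 fold change was -0.21 (95% interval -0.53 to 0.11). These were the 2 genes of the 10 without overlap, both lower under irbesartan, where 13.1% of all genes were lower and 8.71% higher without overlap. The treated means of *Trpv5* and *Slc8a1*, 7.76 and 7.64, lay between the *db/m* and the untreated *db/db* means. Both genes had been called higher on these same untreated *db/db* arrays, so this position is not independent evidence of a response to irbesartan.

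*Calb1*, which sits between *Trpv5* and *Slc8a1* in the transport chain, did not have a lower mean in treated mice. Its means were 10.79 ± 0.20 in treated and 10.74 ± 0.25 in untreated *db/db* mice (SD, n = 3), and the log2 fold change of 0.05 had a 95% interval of -0.29 to 0.40. The estimate for *Slc8a1* lies outside this interval but the intervals of both genes overlap, and the difference between the genes was not tested. *Trpm6* had a log2 fold change of 0.26 (95% interval -0.10 to 0.61) with overlapping groups. *Cldn16* had -0.17 (-0.38 to 0.04), *Egf* 0.16 (-0.11 to 0.44), *Cldn19* 0.12 (-0.16 to 0.41) and *Pvalb* 0.10 (-0.17 to 0.37). *Atp2b1* and *Casr* had 0.08 and 0.01. All of these intervals included 0.

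The wider pathway was described by a list of 56 further genes of calcium and magnesium transport and its hormones, 55 of them measured and 49 above the median level. In untreated *db/db* against *db/m* mice 2 rose and 1 fell, where 1.31% and 0.987% of all genes did, and the median log2 fold change of the list was 0.09. Among its hormone genes, *Cyp27b1*, the enzyme that makes active vitamin D, had signals of 8.77, 7.72 and 8.88 in *db/db* mice and 7.30, 6.97 and 6.92 in *db/m* mice. It rose 2.63-fold (log2 fold change 1.40, SE 0.31, limma adjusted p = 0.0643), and *db/db* replicate 2 was well below the other 2. Some listed genes linked to active vitamin D were not called, whereas *Calb1* and *Trpv5*, of the chain that this hormone stimulates, were. Whether any of these genes followed *Cyp27b1* was not tested. The calcium channel *Trpv6*, with group means of 4.16 in *db/m* and 4.23 in *db/db* mice, had a log2 fold change of 0.07. The calcium buffer *S100g* had a log2 fold change of 0.27 (SE 0.11, adjusted p = 0.338 by limma), and the receptor *Vdr* and the degrading enzyme *Cyp24a1* had -0.04 and -0.07. *Sgk1*, an aldosterone-induced kinase that stimulates several distal channels, rose with 8.39, 8.25 and 8.94 against 8.01, 7.87 and 7.52 (log2 fold change 0.72, SE 0.21, limma adjusted p = 0.158).

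Of the magnesium genes in the list, *Slc41a2*, a magnesium transporter, fell. Its signals were 6.17, 6.02 and 6.20 in *db/db* mice and 6.82, 6.84 and 6.52 in *db/m* mice, a log2 fold change of -0.60 (SE 0.12, adjusted p = 0.0417 by limma). This is opposite in direction to the 3 calcium genes. Its family members *Slc41a3* and *Slc41a1* did not fall. *Slc41a3* had 0.34 (SE 0.11, adjusted p = 0.230 by limma), without overlap and under the fold threshold, and *Slc41a1* had 0.07. *Kcnj10*, the basolateral potassium channel of the distal convoluted tubule, had a log2 fold change of 0.40 (SE 0.11, adjusted p = 0.131 by limma), and *Atp2b4*, a further calcium pump, 0.47 (SE 0.12, adjusted p = 0.103 by limma), both without overlap and under the fold threshold. *Cldn14*, which blocks the claudin-16 and claudin-19 pathway, had -0.33 (SE 0.09, adjusted p = 0.116 by limma) at a level below the median of all probe sets. The sodium transporters of both segments, *Slc12a3* and *Slc12a1*, had 0.27 (limma adjusted p = 0.308) and 0.38 (limma adjusted p = 0.280), and *Umod* had 0.15.

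In treated *db/db* against *db/m* mice 4 genes of the list rose and 1 fell, where 1.93% and 1.96% of all genes did, with a list median of 0.10. *Sgk1* was 8.66, 9.28 and 9.22, above all *db/m* mice, and rose 2.38-fold (log2 fold change 1.25, SE 0.21, limma adjusted p = 0.0112). *Slc41a2* was 5.73, 6.01 and 5.77, below all *db/m* mice, with a log2 fold change of -0.89 (SE 0.12, adjusted p = 0.00387 by limma). *Cyp27b1* was 8.04, 7.23 and 8.24, so treated replicate 2 lay inside the *db/m* range, and its log2 fold change was 0.77 (SE 0.31, adjusted p = 0.233 by limma). *Ptp4a1*, a phosphatase that binds the CNNM magnesium transporters, and *Stc1*, the calcium-regulated hormone stanniocalcin, had 0.55 and 0.52 (limma adjusted p = 0.160 and 0.234). The groups of *Ptp4a1* and *Stc1* did not overlap, and both lay close to the fold threshold.

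Irbesartan gave no call among the 55 genes when treated mice were set against untreated *db/db* mice, where 0.577% of all genes were called higher and 0.428% lower, and the list median was -0.02. By limma, 7 of the 55 had an unadjusted p under 0.05, against 12.2% of all genes. *Sgk1* had 0.53 (SE 0.21, adjusted p = 0.353 by limma), *Cyp27b1* -0.62 (SE 0.31, adjusted p = 0.448 by limma) and *Slc41a2* -0.29 (SE 0.12, adjusted p = 0.355 by limma). *Slc41a2* was lower in every treated mouse than in every untreated *db/db* mouse, while the other 2 overlapped.

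**Figure D3:**
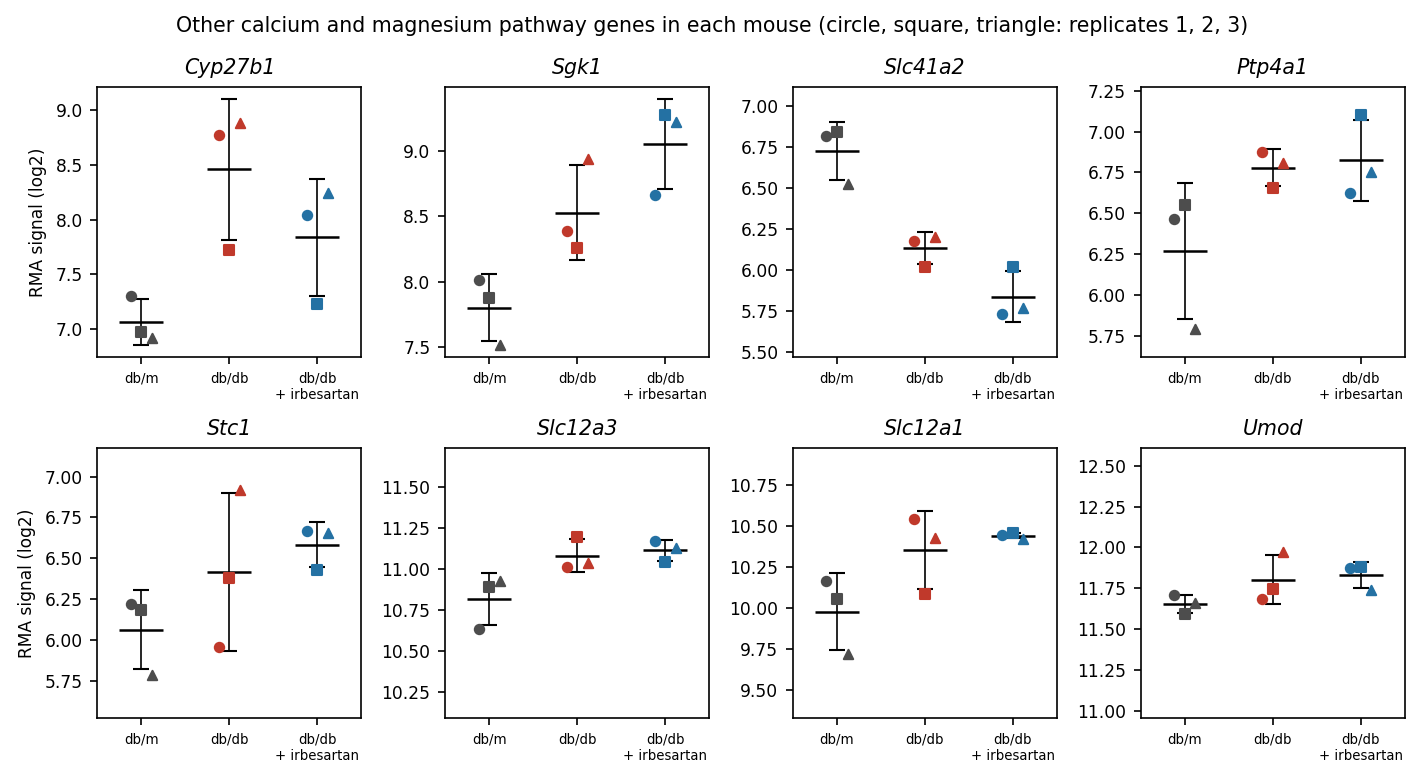
RMA signal (log2) of the 5 further pathway genes called in at least 1 comparison and of the segment genes *Slc12a3*, *Slc12a1* and *Umod* in each mouse, where circles, squares and triangles are replicates 1, 2 and 3, horizontal bars are group means and vertical bars are SDs (n = 3). *Slc41a2* is below the *db/m* range in all 6 *db/db* mice, *Sgk1* is above it in all 6, and *Cyp27b1* of treated replicate 2 lies at 7.23.

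Markers of the distal convoluted tubule and of the connecting tubule and principal cell had mostly positive fold changes in *db/db* mice as well. The 6 measured markers of the distal convoluted tubule all had positive log2 fold changes in untreated *db/db* mice (median 0.26, 0 called), with a summed level of 12.41 to 12.62 against 12.17 to 12.30 in *db/m* mice and 12.48 to 12.59 in treated mice. The 8 markers of the connecting tubule and principal cell had a median of 0.20 (0 called, 7 of 8 above 0), with summed levels of 11.48 to 11.63 against 11.25 to 11.54. The mean level of these 14 markers was 8.28, 8.36 and 8.50 in the *db/m* mice, 8.58, 8.64 and 8.62 in the untreated and 8.55, 8.60 and 8.58 in the treated *db/db* mice. The fold changes of the 10 genes were recomputed with each array centred on these markers, an alternative chosen after the data were seen. Centred in this way, the median of all genes in untreated *db/db* against *db/m* mice was -0.23, and *Slc8a1* stayed a DEG at 0.65 while *Calb1* (0.44) and *Trpv5* (0.32) did not. In treated *db/db* against *db/m* mice the median of all genes was -0.20, *Calb1* stayed a DEG at 0.53, and *Slc8a1* (0.32) and *Trpm6* (0.36) did not.

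The thick ascending limb, which holds *Cldn16*, *Cldn19* and *Casr*, also had mostly positive fold changes. Its 8 markers had a median log2 fold change of 0.29 in untreated *db/db* against *db/m* mice, with 7 of 8 above 0. Their summed level was 12.69 to 12.88 against 12.51 to 12.64 in *db/m* mice, without overlap. The prostaglandin receptor *Ptger3* was called at 0.82 (SE 0.17, adjusted p = 0.0451 by limma). The 6 intercalated cell markers had a median of 0.36, with the water channel *Aqp6* called at 0.60 (SE 0.10, adjusted p = 0.0206 by limma). Their summed level was 10.61 to 10.76 against 10.24 to 10.47 in *db/m* mice, also without overlap. The remaining segments and cell types gave a mixed picture. The proximal tubule (0.02, 8 markers), podocyte (0.13, 4) and endothelium (-0.03, 6) lists had 0 genes called, and the macrophage list had a median of -0.28 (5 markers, 0 called). In treated *db/db* against *db/m* mice *Ptger3* (0.70) and *Aqp6* (0.63) were called again, and *Csf1r*, a macrophage receptor, fell by 0.54 on the log2 scale. Between treated and untreated *db/db* mice *Foxi1*, the intercalated cell transcription factor, was called at 0.55. The 3 inner medulla and thin limb markers measured differed in direction, with the urea transporter *Slc14a1* called higher (0.79) in untreated *db/db* mice and *Aqp4* called lower (-0.64) in treated *db/db* mice, both against *db/m*.

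**Figure D4:**
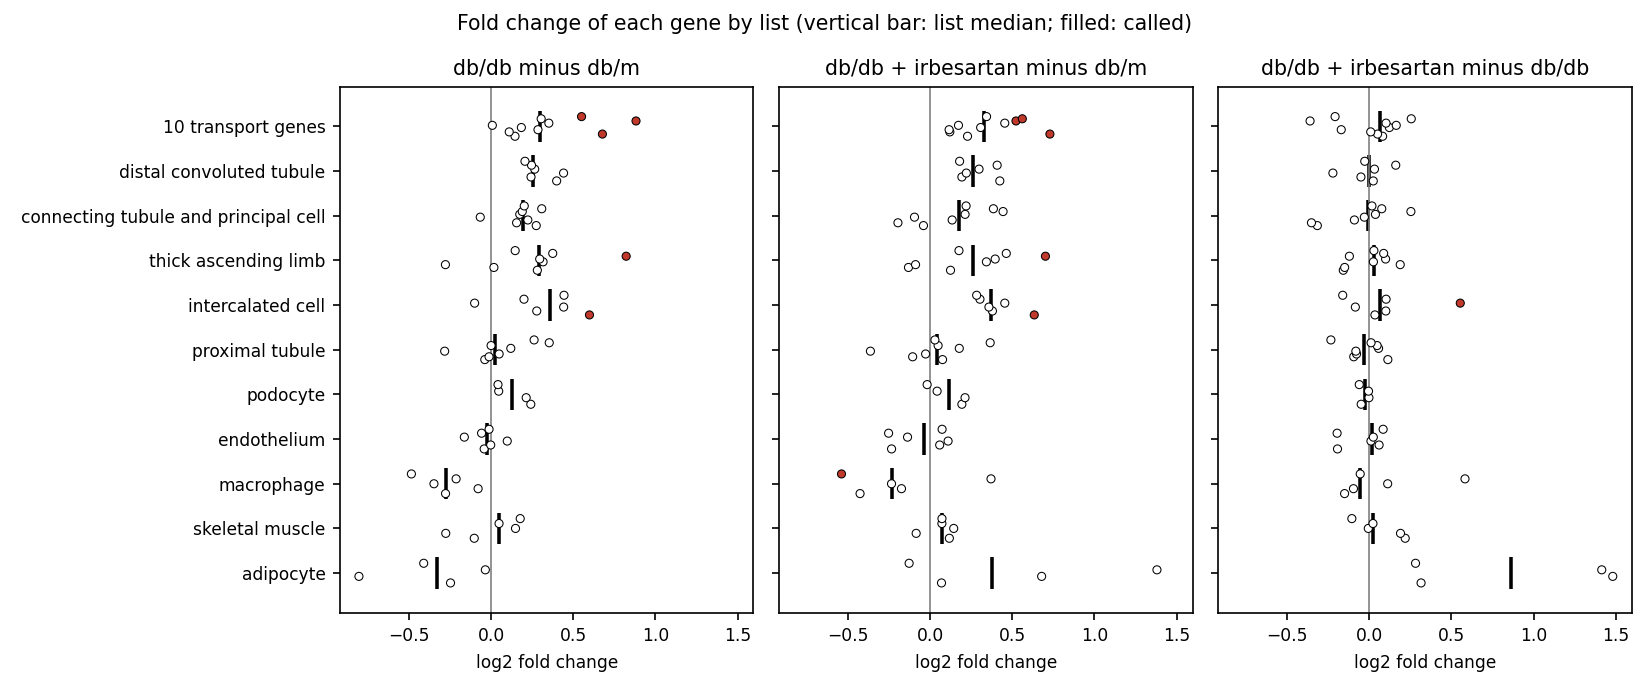
Log2 fold change of each gene (points) by list in the 3 comparisons, where vertical bars are list medians and filled points are DEGs. The distal convoluted tubule markers lie between 0.21 and 0.44 in untreated *db/db* against *db/m* mice. The DEGs *Calb1*, *Slc8a1* and *Trpv5* lie above this range, but only genes beyond the fold threshold, itself above the range, could be DEGs. *Pvalb* (0.35), *Trpm6* (0.30) and *Cldn16* (0.29) lie inside the range, and *Cldn19* (0.18), *Atp2b1* (0.15), *Casr* (0.11) and *Egf* (0.01) lie below it.

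Some arrays stood apart. Adipocyte markers were raised in 1 treated *db/db* mouse (replicate 2, summed level 8.10, against 5.38 and 5.45 in the other 2) and less so in 1 *db/m* mouse (replicate 2, 6.5), whereas untreated *db/db* mice lay between 5.11 and 5.27. In the same treated mouse the summed level was 8.98 for the 5 macrophage markers, against 8.22 and 7.95 in the other 2, and 10.04 for the 5 fibroblast and pericyte markers, against 9.56 and 9.11. The fibroblast and pericyte list had 0 genes called in each of the 3 comparisons. Treated replicate 2 was the lowest of its group for 6 of the 10 genes and *db/m* replicate 2 the highest of its group for 7. Of the arrays with little adipocyte marker, untreated *db/db* replicate 3 was the lowest for 6 and treated replicate 3 the highest for 7. Whether adipose tissue contributed to these ranks was not tested. Without the pair of arrays with most adipocyte marker, an alternative chosen after the data were seen, the 3 DEGs in untreated *db/db* mice were the same, and 5 of the 10 genes were DEGs in treated *db/db* against *db/m* mice, with *Trpv5* and *Pvalb* added to *Calb1*, *Slc8a1* and *Trpm6*. The share of all genes called in that comparison, in either direction, was then 5.37%, against 3.89% with all arrays. None of the 10 was a DEG between treated and untreated *db/db* mice in that fit.

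The 10 genes did not vary as a unit among mice of the same group. Pearson correlations of their deviations from the group means over the 9 arrays ranged from -0.55 to 0.92 over 45 pairs, with a median of 0.14 and 29 pairs above 0. The points share arrays and the scaling of each array. *Slc8a1* and *Trpv5* correlated at 0.88, *Slc8a1* and *Trpm6* at 0.81, and *Trpv5* and *Trpm6* at 0.67. In the pair of arrays with most adipocyte marker, their deviations were 0.19, 0.27 and 0.18 (*db/m* replicate 2) and -0.19, -0.26 and -0.30 (treated replicate 2), for *Slc8a1*, *Trpv5* and *Trpm6*. Their signs agreed in most other arrays but not in treated replicate 1 (-0.03, 0.12 and 0.06). Correlations without that pair were not computed. *Calb1* correlated at 0.57 with *Trpv5* and 0.46 with *Slc8a1*. *Atp2b1* and *Egf* formed the closest pair, at 0.92. *Cldn16* and *Cldn19*, whose proteins act together, correlated at -0.33.

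Across all 9 arrays, the genes with the pattern most like that of each of the 4 DEGs were sought among 13961 genes above the median level, by Pearson correlation of the signals. The likest genes were *Ptgfr* (0.98), *Ints6l* (0.98) and *Ocln* (0.97) for *Calb1*, and *Bex3* (0.99), *Brca2* (0.98) and *Tm4sf1* (0.97) for *Slc8a1*. For *Trpv5* they were *Raph1*, *Oxnad1* and *Exoc3* (0.96 to 0.97), and for *Trpm6* they were *Guca2a* (0.96), *Stra6* (0.96) and *Tmem52b* (0.95), the last of which is a distal convoluted tubule marker of the list. With group means removed, *Oxnad1* (0.97) for *Trpv5* and *Guca2a* (0.98) for *Trpm6* were again among the 3 likest. None of the 3 was shared for *Calb1* or *Slc8a1*, whose likest genes were then *Chrng* (0.987) and *Krtap5-1* (0.985). These values are descriptive, and the same 9 arrays stand behind each of them. Each is among the highest of 13961 correlations, and how high such a top value lies without any relation was not computed.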

How the data were processed

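Kidney RNA of 9 mice was hybridized to whole-transcript Affymetrix mouse arrays, 1 array per mouse, as the labels state, whereas the methods name another Affymetrix array. The authors summarized the scans by RMA in Affymetrix Expression Console, per the labels, and the deposited log2 values, 1 per probe set, were used as given. RMA corrects background and quantile-normalizes, which compresses differences of dim probe sets. Scanner files and scan dates were not analysed here.

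Of 41345 probe sets, 23521 carried a single symbol in the annotation given with the array, 1820 carried several and were left out, and 16004 had none here. Per gene, the brightest probe set by mean was kept, which left 22180 genes with no filter on low values. Limma 3.58.1 in R 4.3.3 fitted a mean for each group over all 9 arrays, with variances moderated across genes (residual degrees of freedom 6, prior 5.05), after the script was tested on simulated data. The fold condition of the methods was taken as a minimum. The errors given are SDs among the mice of a group or SEs of fold changes. The mice are separate animals, and 3 per group limits the precision of every value.

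The 10 genes, the gene lists and the motifs were chosen with earlier results of these data known, and the lists share some genes. After the data were seen, 2 duplicate names of listed genes were removed from the pathway list, which left 56, of which 55 were measured. By rule, all 10 genes, listed genes called in at least 1 comparison, *Slc12a3*, *Slc12a1*, *Umod* and, for each of the 4 DEGs among the 10, the 3 likest genes were named. Other listed genes were named after their values were seen. Promoter sequences came from RefSeq (GRCm38.p6). Alternatives were other variance models, filters, probe set rules, scalings, thresholds, a replicate block, and leaving out each array. Figures were drawn with matplotlib 3.10.9 in Python 3.11.15.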

Additional observations from a re-analysis of the deposited data

How the results depend on the processing

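Of 132 recomputed counts of DEGs among the 10 genes or the pathway list, 108 stayed within 1.5 times the reported count, and of 600 recomputed fold changes of the 10 genes 558 kept their direction and their side of the thresholds, 18 lost a call, 4 gained one and 20 changed sign. In untreated *db/db* against *db/m* mice 3 of the 10 genes were called. The count was 0 with unmoderated variances, 1 at an adjusted p under 0.05, 5 without the fold condition, which added *Pvalb* and *Cldn16*, and 1 with arrays centred on the distal tubule markers, and leaving out each array gave 2 to 3. In treated *db/db* against *db/m* mice, also 3, it was 1 with unmoderated variances, 1 at an adjusted p under 0.05, 1 with that centring, and 5 without the pair of arrays with most adipocyte marker, and leaving out each array gave 1 to 4, with 1 when treated replicate 3 was left out. Between treated and untreated *db/db* mice every alternative and every left-out array gave 0. *Trpv5* in untreated *db/db* mice also lost its call when every probe set was tested, and *Slc8a1* in treated *db/db* mice with median centring. *Calb1* in treated *db/db* against *db/m* mice kept its call in all alternatives run.

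For the pathway list in untreated *db/db* against *db/m* mice (3 called), the counts were 0 with unmoderated variances, 1 at an adjusted p under 0.05, 8 without the fold condition, 6 without the pair of arrays, and 2 to 6 when each array was left out, with 6 without *db/m* replicate 2. In treated *db/db* against *db/m* mice (5 called) they were 2, 2 and 15 under the first 3 of these, 2 when every probe set was tested, 3 with the distal centring, and 2 to 5 when each array was left out, with 2 without treated replicate 3 and 3 without *db/m* replicate 3, treated replicate 1 or treated replicate 2. Between treated and untreated *db/db* mice the range was 0 to 2, with *Trpv6* and *Sgk1* called without *db/db* replicate 3.

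The sign changes all concerned fold changes that were not called. In untreated *db/db* against *db/m* mice, *Egf* was -0.00488 after a repeated quantile normalization and -0.0824 to 0.117 when each array was left out. With distal centring *Atp2b1* was -0.0875, *Casr* -0.123, *Cldn19* -0.0488 and *Egf* -0.225 there, and *Casr* was -0.0791, *Cldn16* -0.0834 and *Egf* -0.0265 in treated *db/db* against *db/m* mice. Between treated and untreated *db/db* mice, median centring gave -0.00109 for *Calb1* and -0.043 for *Casr*, and leaving out each array gave -0.0918 to 0.169 for *Calb1*, -0.00087 to 0.191 for *Atp2b1* and -0.0457 to 0.0572 for *Casr*. The cause of these changes was not tested.

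Replicate numbers did not pair the mice, since deviations of same-numbered arrays correlated between -0.08 and 0.04 and 2 of 9 arrays correlated best with their own number. With the replicate block the counts were 3, 0 and 3 of the 10 genes and 3, 0 and 4 of the pathway list for the untreated comparison, the irbesartan comparison and the treated comparison with *db/m* mice, and the block changed no call among the 10 genes. The distal centring and the removal of the pair of arrays were chosen after the data were seen. Signals near the background of the array, such as those of *Cldn14*, have compressed differences.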
